A study of Homo sapiens with 6 samples.

Results

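TM4SF4, PTGES, REEP6, GPR155, GPR50, PARM1 and SNX32 are 7 genes of membrane proteins and lipid signalling that were selected on their measured decrease, among the named genes with the largest one, in neuroblastoma cells grown without doxycycline. They are 7 of 14884 genes named in the annotation of the arrays, and each had 1 probe set among 53617. The cells, BE(2)-C_tetoff_KDM4C, derive from BE(2)-C, an established line of human neuroblastoma, and hold KDM4C under tet-off control. KDM4C is a histone demethylase that acts on methylated lysine 9 of histone H3. Total RNA was measured on 6 Affymetrix whole-transcript arrays, 3 of cells cultured with doxycycline, which keeps a tet-off construct silent, and 3 of cells cultured without it, all for 6 days in medium with dialyzed serum. Both groups carry the construct, and no arrays of cells without it were analysed here, so induction of KDM4C and withdrawal of doxycycline cannot be told apart. The design text calls the samples of a group independent without naming separate cultures, so errors measure the spread between these samples.

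The protein products sit on or act at membranes. TM4SF4 is a 4-pass protein of the L6 family, a small group that resembles the tetraspanins in layout. PTGES is the inducible microsomal prostaglandin E synthase, which turns the endoperoxide made by the cyclooxygenases PTGS1 and PTGS2 into prostaglandin E2, a lipid that acts on its own G protein-coupled receptors. REEP6 is a hairpin protein of the endoplasmic reticulum known for its role in rod photoreceptors. GPR155 is a lysosomal protein known to sense cholesterol and to report it to mTORC1. GPR50 is an X-linked orphan receptor related to the melatonin receptors that does not bind melatonin. PARM1 is a mucin-like glycoprotein first known as an androgen-regulated gene of the prostate, and SNX32 is a sorting nexin close to SNX5 and SNX6 that helps to sort cargo on endosomes.

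The starts of these genes are shown because they show how unlike the promoters of genes with like differences were. Of the 7 genes, 5 matched an entry of RefSeq promoter sequences (GRCh38.p14, 250 bases before to 50 after the start). TM4SF4 (chr3:149474447-149474746, plus strand) had the fewest CpG dinucleotides, REEP6 (chr19:1490931-1491230, plus strand) the most, and PARM1 (chr4:74932866-74933165, plus strand) held the only match to a searched motif. Capitals mark CpG dinucleotides.
TM4SF4: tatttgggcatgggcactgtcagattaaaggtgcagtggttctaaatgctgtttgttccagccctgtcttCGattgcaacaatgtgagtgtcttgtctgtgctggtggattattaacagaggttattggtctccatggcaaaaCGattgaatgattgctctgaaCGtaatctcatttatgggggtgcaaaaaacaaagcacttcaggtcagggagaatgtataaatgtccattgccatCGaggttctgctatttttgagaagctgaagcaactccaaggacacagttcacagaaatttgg
REEP6: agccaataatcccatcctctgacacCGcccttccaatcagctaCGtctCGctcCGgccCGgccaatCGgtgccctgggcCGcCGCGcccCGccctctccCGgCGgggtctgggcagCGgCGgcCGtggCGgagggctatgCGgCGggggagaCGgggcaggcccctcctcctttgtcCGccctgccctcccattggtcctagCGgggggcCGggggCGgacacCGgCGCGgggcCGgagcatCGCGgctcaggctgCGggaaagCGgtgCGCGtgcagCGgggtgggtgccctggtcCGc
PARM1: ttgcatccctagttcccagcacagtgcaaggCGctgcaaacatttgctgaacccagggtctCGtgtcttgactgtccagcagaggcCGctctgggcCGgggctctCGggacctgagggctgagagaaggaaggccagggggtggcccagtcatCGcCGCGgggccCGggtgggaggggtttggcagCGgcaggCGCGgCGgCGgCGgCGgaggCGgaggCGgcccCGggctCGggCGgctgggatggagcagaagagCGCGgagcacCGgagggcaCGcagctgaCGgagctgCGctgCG

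The TM4SF4 window had 4 CpG dinucleotides and a GC content of 42.7%, against medians of 14 and 58.3% over 27305 promoters of the same length. Of those promoters, 25.3% had fewer CpG dinucleotides than TM4SF4. The REEP6 window had 35 at a GC content of 75.3%, and 86.0% of promoters had fewer. PARM1 had 28 at 71.3%. PTGES and GPR50, whose sequences are not printed, had 10 at 61.7% and 7 at 56.7%. The 5 windows thus ran from CpG-poor to CpG-rich, on both sides of the median. Both strands were searched for 3 motifs. CACGTG, the E-box bound by MYC family factors, was in 0 of the 5 windows and in 7.43% of all promoters. TGANTCA, the motif of AP-1, was in 0 of 5 and in 7.76% of all. TTGCATC, part of a motif shared by C/EBP and ATF factors, was in PARM1 alone of the 5, at the first base of the window, and in 2.42% of all promoters. A match describes these letters and not a bound site.

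KDM4C, the gene of the construct, was at 7.71, 7.77 and 7.80 on the 3 arrays with doxycycline and at 8.97, 9.08 and 9.02 on those without (log2), higher in the group that a tet-off system should induce. Of the neuroblastoma identity genes, 7 of 10 were measured, and PHOX2A, HAND2, GATA3, ISL1, TH, DBH and CHGA had means over all 6 arrays of 9.06 to 11.1, where the median probe set was at 3.94. Across the whole table, limma at an adjusted p below 0.05 called 50 probe sets, or 0.0933%, lower without doxycycline and 133, or 0.248%, higher.

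All 7 genes were lower without doxycycline, by 1.74- to 2.03-fold, and in each of them every array without doxycycline lay below every array with it. These same values chose the genes, so they are given as a description with no test. Of all probe sets, 9.09% had groups that did not overlap in this direction. In RNA of whole cultures, fewer cells of a type and less RNA per cell cannot be told apart.

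TM4SF4 was at 5.43, 5.53 and 5.64 on the arrays with doxycycline and at 4.44, 4.59 and 4.50 on those without (log2, replicates 1 to 3). The groups lay 0.84 apart at their nearest arrays, the widest such gap of the 7. The log2 difference, without minus with doxycycline, was -1.02 (SE 0.08, 95% confidence interval -1.22 to -0.83), a 2.03-fold lower level.

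PTGES was at 5.23, 5.16 and 5.40 with and at 4.40, 4.07 and 4.42 without doxycycline (log2). The second replicate without doxycycline lay below the other two of its group, and the SD of 0.19 was the largest of the 7 in that group. The log2 difference was -0.97 (SE 0.12, interval -1.25 to -0.69), or 1.96-fold lower. Without doxycycline PTGES lay close to the median probe set, at 3.94, and summarized array values are known to compress differences of dim probe sets.

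REEP6 was at 7.02, 6.97 and 7.35 with and at 6.10, 6.06 and 6.29 without doxycycline (log2). The third replicate was the highest of its group in both conditions, and the SD with doxycycline, 0.21, was the largest of the 7. The log2 difference was -0.96 (SE 0.12, interval -1.25 to -0.67), or 1.95-fold lower.

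GPR155 was at 7.82, 7.99 and 7.92 with and at 6.93, 7.01 and 6.96 without doxycycline (log2). Its arrays lay close together, with an SD of 0.09 and 0.04, and its groups were 0.81 apart at their nearest arrays. The log2 difference was -0.95 (SE 0.07, interval -1.12 to -0.78), or 1.93-fold lower, with the smallest SE of the 7.

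GPR50 was at 8.48, 8.46 and 8.69 with and at 7.81, 7.83 and 7.56 without doxycycline (log2). The third replicate was the highest array of one group and the lowest of the other. The log2 difference was -0.81 (SE 0.10, interval -1.06 to -0.57), or 1.76-fold lower.

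PARM1 was at 7.40, 7.46 and 7.37 with and at 6.72, 6.57 and 6.45 without doxycycline (log2). The arrays with doxycycline agreed within an SD of 0.05, against 0.13 without it. The log2 difference was -0.83 (SE 0.08, interval -1.04 to -0.63), or 1.78-fold lower.

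SNX32 was at 5.80, 5.66 and 5.98 with and at 5.02, 4.95 and 5.07 without doxycycline (log2). Here the spread was the larger with doxycycline, at an SD of 0.16 against 0.06. The log2 difference was -0.80 (SE 0.10, interval -1.03 to -0.57), or 1.74-fold lower, and the gap between the groups, 0.58, was the narrowest of the 7.

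**Figure D1:**
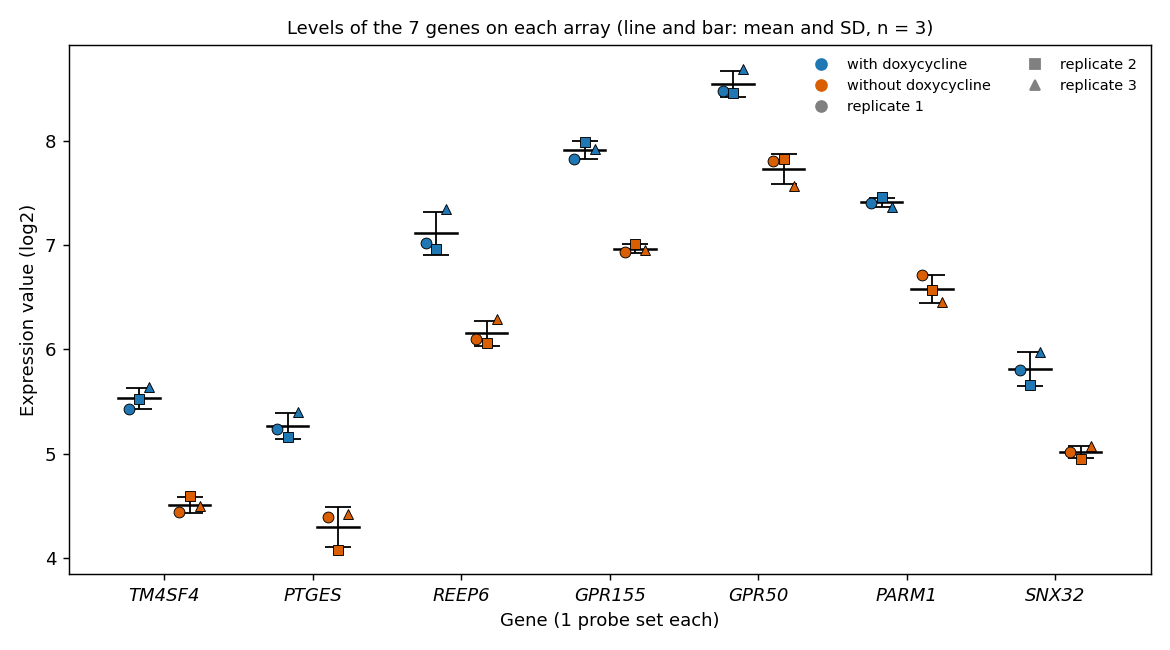
Log2 expression value (y axis) of each of the 7 genes (x axis) on the 3 arrays with and the 3 without doxycycline, with the mean and SD of each group. In each gene all arrays without doxycycline lie below all arrays with it, by 0.58 to 0.84 at the nearest arrays.

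The 7 decreases lay close together in size, which their choice by size of decrease favoured. Their log2 differences ran from -1.02 to -0.80 with a median of -0.95, and all 7 confidence intervals held the stretch from -1.03 to -0.83. The intervals do not allow for the choice of the genes by this difference. With 1 array left out the differences stayed between -1.07 and -0.72 across the 7. The 7 genes were picked by size of decrease, so being past the threshold on all 6 arrays says nothing further about them. With any one of the 6 arrays left out, 0 of 7 had a limma adjusted p below 0.05. Of all 53617 probe sets, 0 to 3 were then lower past the threshold, so this count is no result about the 7 genes. The lowest limma adjusted p of the 7 genes was then 0.0674, 0.0648 and 0.0578 when replicate 1, 2 or 3 with doxycycline was left out. It was 0.0666, 0.0811 and 0.0906 when replicate 1, 2 or 3 of the other group was left out.

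With 1 probe set per gene, 20 named genes, or 0.134%, were lower past the threshold, and the 7 stood among the first 12 of them by size of difference. Among all probe sets, named or not and past the threshold or not, TM4SF4 had rank 56 and SNX32 rank 160 by size of decrease. DCN, the gene of the matrix proteoglycan decorin, stood above TM4SF4 at -1.29 (log2), and NPY2R, a receptor of neuropeptide Y, stood just below SNX32 at -0.77 (SE 0.06). ARHGEF28, IGFBP7 and rows annotated to MIR548I2 and MIR548I1 lay between the 7 in this order and were not picked, at log2 differences of -0.98, -0.84, -0.95 and -0.83. The values on either side of the lower edge of the choice, -0.80 and -0.77, differed by less than the SE of either.

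**Figure D2:**
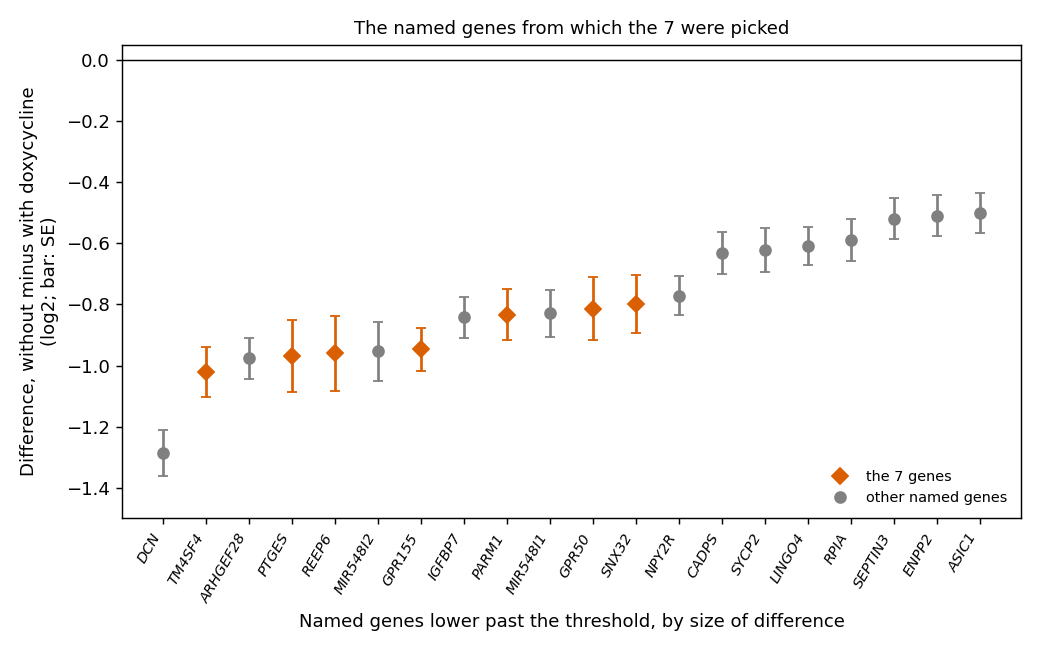
Log2 difference without minus with doxycycline (y axis, bars are SE) of the 20 named genes that were lower past the threshold, ordered by size (x axis). The 7 genes (diamonds) run from -1.02 to -0.80 and are mixed with genes that were not picked (circles), from DCN at -1.29 to ASIC1 at -0.50.

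Within the groups, the third replicate with doxycycline was the highest of its group in 5 of the 7 genes, TM4SF4, PTGES, REEP6, GPR50 and SNX32. There the 7 genes had a median deviation of 0.14 from their group means, from -0.04 in PARM1 to 0.24 in REEP6, while the median deviation of all probe sets on that array was -0.003. The first replicate with doxycycline was below the group mean in 7 of 7 genes, with a median deviation of -0.06. Without the third replicate with doxycycline the 7 log2 differences ran from -0.97 to -0.72, against -1.02 to -0.80 with it. The arrays without doxycycline showed no such order, with 4, 3 and 3 genes above the group mean in replicates 1, 2 and 3. The pooled SD of the 7 genes had a median of 0.12, as did that of all probe sets, while that of probe sets with 1 gene symbol was 0.099.

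**Figure D3:**
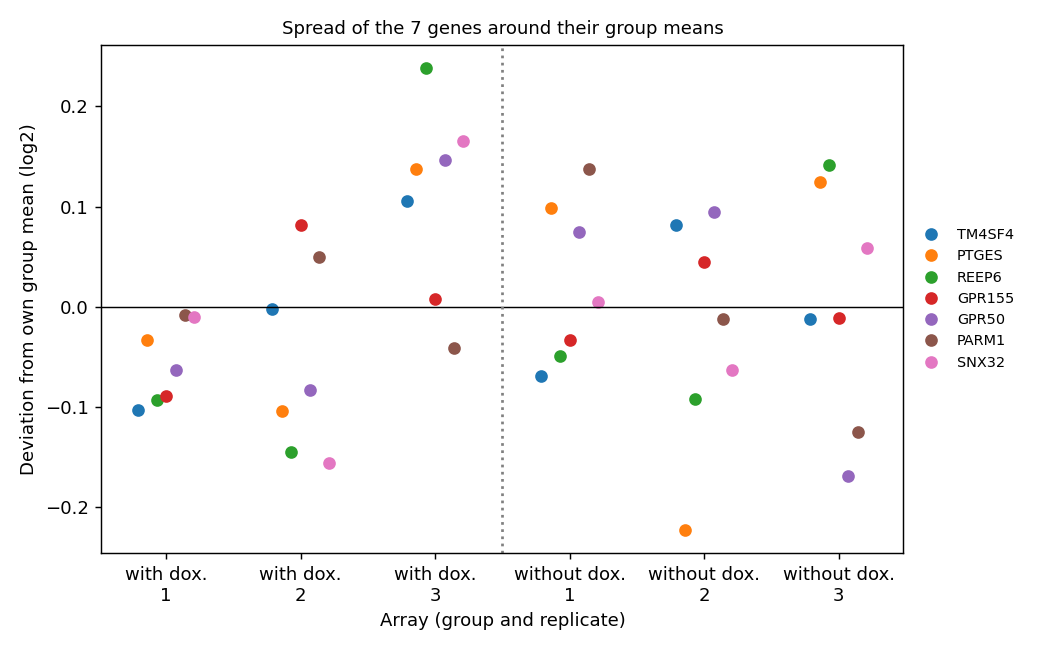
Deviation of each of the 7 genes from its own group mean (y axis, log2) on each of the 6 arrays (x axis). On the third array with doxycycline 6 of 7 genes lie above their group mean, and on the first all 7 lie below it.

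By root mean square distance over the 6 arrays, after centring each gene on its own mean, the 5 named rows nearest to the mean profile of the 7 genes were IGFBP7 (0.08), MIR548I1 (0.10), ARHGEF28 (0.10), NPY2R (0.10) and MIR548I2 (0.11, all log2), where the median gene was at 0.47. IGFBP7 encodes a secreted protein that binds insulin-like growth factors. The distance is made up mostly of the difference between groups, which is what chose the 7 genes. Of single pairs, GPR155 and ARHGEF28 were nearest, at 0.04. PARM1 and GPR50 were each nearest to MIR548I1, at 0.07 and 0.08, TM4SF4 and REEP6 to MIR548I2, at 0.08 and 0.15, and PTGES to IGFBP7, at 0.15. SNX32 was nearest to CD44, a cell surface receptor for hyaluronan, at 0.11. MIR548I1 and MIR548I2 belong to a multicopy family, so these rows are uncertain.

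The relatives of the 7 genes, which the choice did not use, are given beside them. Of 110 further genes of their families and pathways, 82 were measured, and 0 rose and 0 fell at a limma adjusted p below 0.05. Of all named genes, 0.134% were lower, the 7 among them, and 0.43% higher. At such shares 0 of 82 is no result about the relatives, nor are the counts of 0 in the single lists below. At an unadjusted p below 0.05, limma had 11 of the 82 lower and 3 higher, against 6.87% of all named genes lower and 7.57% higher. Their median log2 difference was -0.02, and that of all probe sets was 0.01. The lowest end of any of the 82 confidence intervals was -0.67, so 0 of them held -0.80, the smallest decrease of the 7 genes. That value was set by the choice of the 7, and their own intervals reached up to -0.57 (GPR50). Some relatives thus had intervals that overlapped those of the 7, and smaller changes could be missed with 3 arrays a group.

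Of the L6 family, all 5 other members were measured, and 0 passed. TM4SF1, one of the 2 named genes that flank TM4SF4 on chromosome 3, had a log2 difference of 0.01 (interval -0.30 to 0.32). TM4SF5, TM4SF18, TM4SF19 and TM4SF20 were at -0.06, -0.15, 0.02 and 0.07, and all but TM4SF19, at 4.39 on average, lay below the median probe set, where a change could be missed.

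In prostanoid synthesis and breakdown, 12 genes beside PTGES were measured and 0 passed (0 and 0 at an unadjusted p below 0.05), with a median of -0.004. The cyclooxygenases, which make the substrate of PTGES, were at 0.004 for PTGS1 (interval -0.27 to 0.28) and -0.01 for PTGS2 (interval -0.15 to 0.13). PTGS2 was at 3.06 with and 3.05 without doxycycline (log2), below the median probe set. The other prostaglandin E synthases, PTGES2 and PTGES3, were at 0.05 and 0.02, with intervals of -0.15 to 0.24 and -0.14 to 0.18. The dimmer probe set of PTGES3 was at -0.09. HPGD, which inactivates prostaglandins, was at 0.12 and PTGR2, a reductase of the same breakdown route, at 0.14. CBR1, a carbonyl reductase that can act on prostaglandin E2, was at -0.15, and PTGIS, the prostacyclin synthase, at -0.09.

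Of the prostanoid receptors, 7 of 9 were measured and 0 passed. PTGER3, the EP3 receptor of prostaglandin E2, was at 4.33 ± 0.13 with and 3.86 ± 0.05 without doxycycline (log2, SD, n = 3 each), a log2 difference of -0.47 (SE 0.09) with a limma adjusted p of 0.105. PTGER4, another receptor of the same lipid, was at -0.09. PTGIR, the prostacyclin receptor, was at 0.28 (SE 0.11, limma adjusted p = 0.381), and PTGDR2, a prostaglandin D2 receptor, at 0.10. Of the MAPEG enzymes, the family of membrane proteins of eicosanoid and glutathione metabolism to which PTGES belongs, MGST1, MGST2, MGST3, ALOX5AP and LTC4S were at -0.09, 0.0002, -0.12, -0.16 and -0.06, and 0 of 5 passed.

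Of the other REEP proteins, 0 of 5 passed. REEP3 and REEP2 were at -0.24 (SE 0.07, limma adjusted p = 0.245) and -0.19 (SE 0.07, limma adjusted p = 0.350), REEP5, the closest relative of REEP6, at -0.11, REEP1 at 0.06 and REEP4 at 0.22. Of 8 measured genes of tubular ER shaping, 0 passed. The list holds mainly proteins that bend or join the tubules in which REEP proteins reside. LNPK, which stabilizes the junctions of tubules, was at -0.25 (SE 0.06, limma adjusted p = 0.200), and CKAP4, a protein of ER sheets, at -0.12. The GTPase ATL1, which fuses tubules, was at 0.14 and the reticulon RTN3 at 0.07.

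GPR155 acts in lysosomal nutrient sensing, a list of which 16 other genes were measured and 0 passed. Of their differences 13 of 16 were below 0, with a median of -0.03, against -0.002 for all named genes. A decrease of the list as a whole was not tested. KICS2, a subunit of the KICSTOR complex that holds GATOR1 at the lysosome, was at 7.68 ± 0.11 with and 7.23 ± 0.09 without doxycycline (log2, SD, n = 3 each), a difference of -0.45 (SE 0.09, limma adjusted p = 0.116). RRAGD, a Rag GTPase, was at -0.26 (SE 0.09, limma adjusted p = 0.310), and DEPDC5, a GATOR1 subunit, at 0.25 (SE 0.10, limma adjusted p = 0.368). The other Rag GTPases, RRAGA, RRAGB and RRAGC, were at -0.13, -0.02 and -0.09, and TFEB, a transcription factor of lysosomal genes, at 0.08.

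The melatonin receptors MTNR1A and MTNR1B, the relatives of GPR50, were at 0.10 and -0.27 (limma adjusted p = 0.704 and 0.458), and the enzymes of melatonin synthesis AANAT and ASMT at -0.18 and -0.07. Apart from ASMT these lay below the median probe set, so their differences say little. Of the membrane mucins and sialomucins set beside PARM1, 5 of 15 were measured and 0 passed. CD34, a sialomucin of blood progenitors and vessels, was at 3.99, 4.16 and 3.86 with and 4.63, 4.91 and 4.34 without doxycycline (log2), a difference of 0.63 in the opposite direction to PARM1 (SE 0.15, limma adjusted p = 0.194). PODXL2 was at -0.24 (SE 0.08, limma adjusted p = 0.308) and EMCN at 0.02. TMEM123 was at -0.06, with its dimmer probe set at 0.19.

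All 11 other SNX-BAR sorting nexins, which bend endosomal membranes, were measured, and 0 passed. Of their differences 9 of 11 were below 0, with a median of -0.08, against -0.002 for all named genes. At an unadjusted p below 0.05, limma had 4 lower and 0 higher, against 6.87% and 7.57% of all named genes. A decrease of the family as a whole was not tested. SNX30 was at 6.75, 6.76 and 6.74 with doxycycline and 6.38, 6.27 and 6.18 without (log2, replicates 1 to 3). It had the largest difference, -0.48 (SE 0.07, limma adjusted p = 0.0638). With dim probe sets left out SNX30 passed, at the same difference. SNX33, SNX6 and SNX4 were at -0.30 (SE 0.11), -0.30 (SE 0.07) and -0.23 (SE 0.07). SNX5, which with SNX6 is the closest relative of SNX32, was at 0.06 (interval -0.09 to 0.21), and SNX9 was at 0.07. The retromer subunits VPS35, VPS26A, VPS26B and VPS29, which sort cargo at the same endosomes, were at -0.05, -0.16, 0.01 and 0.03, and 0 of 4 passed.

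**Figure D4:**
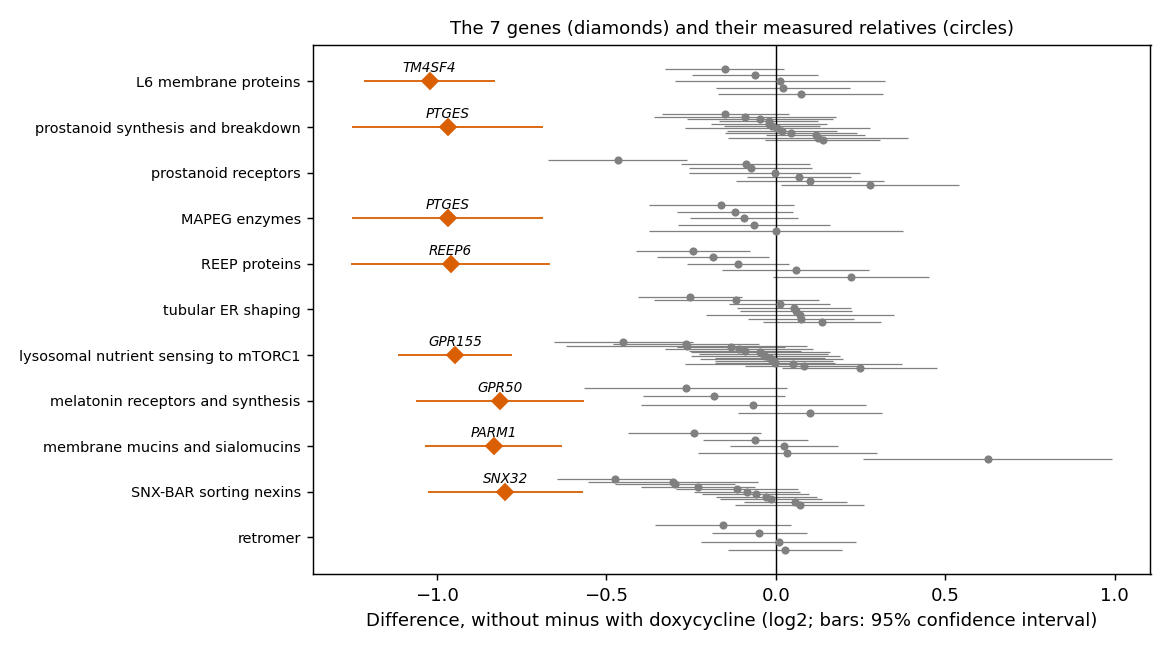
Log2 difference without minus with doxycycline (x axis, bars are 95% confidence intervals) of the 7 genes (diamonds) and of the measured genes of their families and pathways (circles), by list (y axis). The 7 genes lie between -1.02 and -0.80, and the relatives between -0.48 and 0.63.

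The genes next to the 7 on their chromosomes were described as well. In the order of RefSeq genes (GRCh38.p14), the nearest named and measured gene on each side gave 14 neighbours. Their median log2 difference was 0.01. In limma 0 of the 14 passed in either direction, where 0.134% of named genes were lower and 0.43% higher. At an unadjusted p below 0.05, limma had 1 lower and 1 higher, against 6.87% and 7.57% of all named genes. At such shares these counts are no result about the neighbours. The lowest end of their confidence intervals was -0.54, above the smallest decrease of the 7 genes, a value that the choice of the 7 had set. VMA21, an assembly factor of the vacuolar proton pump that follows GPR50 on chromosome X, was at -0.27 (SE 0.07, limma adjusted p = 0.194). MIR4330, on the other side of GPR50, was at -0.23 (SE 0.13, limma adjusted p = 0.522), and its interval was the one that reached -0.54. BTC, the epidermal growth factor receptor ligand betacellulin that precedes PARM1 on chromosome 4, was at 0.30 (SE 0.11, limma adjusted p = 0.352). WWTR1, which with TM4SF1 flanks TM4SF4, was at -0.06. C9orf78, beside PTGES on chromosome 9, was at 0.01, and SCRN3 and CHN1, on either side of GPR155 on chromosome 2, were at 0.06 and -0.13. Unnamed probe sets between these genes were not considered.

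Markers of other cell types were set beside the decrease. Of the mesenchymal and fibroblast markers, 6 of 10 were measured, 0 passed and 3 lay below the median probe set, and their log2 levels summed to 34.0 to 34.7 on the arrays with doxycycline and to 32.9 to 33.4 on those without. CD44 of that list was at 4.15 ± 0.14 with and 3.48 ± 0.15 without doxycycline (log2, SD, n = 3 each), a difference of -0.67 (SE 0.11, limma adjusted p = 0.0770). VIM was at -0.19, with its dimmer probe sets at -0.29 (SE 0.11) and -0.38 (SE 0.21). The fibronectin gene FN1 was near the bottom of the scale in both groups, at 3.39 and 3.44. PRRX1 and THY1 were at -0.18 and -0.07. TWIST1, at 8.17 with and 8.20 without doxycycline (log2), was at 0.02. The mesenchymal and fibroblast sums moved with the 7 genes, with CD44 as the largest difference in them. Their part in the decrease was not tested. The Schwann and glial sums (4 of 6 measured) were 16.5 to 17.1 with and 16.2 to 16.6 without doxycycline and overlapped, as did the epithelial sums (5 of 6), at 22.8 to 23.0 and 22.5 to 23.5, the immune sums (3 of 6), at 12.1 to 12.6 and 12.3 to 12.7, and the endothelial sums (3 of 5), at 8.62 to 9.15 and 8.88 to 9.40. TYROBP, VWF and PECAM1, defining genes of immune and endothelial cells, had means between 2.98 and 3.35 in both groups. Among the remaining measured genes of these lists, LAPTM5 had means of 3.27 with and 3.37 without doxycycline, and KDR of 2.85 and 2.91 (log2). The immune marker CD68 was much brighter, with means of 5.74 and 5.75, so low values did not hold for every immune marker measured.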

How the data were processed

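The authors deposited log2 values, 1 for each probe set on each array, made with Partek, per the submitters' processing notes. How background, normalization and summarization were handled, and the genome build, is not given in the sources used here. Base 2 was read from the range of the values, 2.12 to 14.3, which other log bases of a scanner signal cannot reach, and the array medians lay between 3.94 and 3.96. The number of arrays limits the precision.

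Names come from GEO's annotation of the platform, in which 16098 of 53617 probe sets had 1 gene symbol. The probe set with the highest mean stood for a gene with several. All probe sets were fitted with limma 3.58.1 in R 4.3.3 (lmFit, eBayes, no covariate), with Benjamini-Hochberg adjustment over all of them and a threshold of 0.05. The fit was tested on simulated data. The 7 genes, the lists of relatives and the markers were chosen with earlier results of these data known. The text names the 7 genes, KDM4C, and from each list the genes with the smallest p in each direction, all genes of short lists, and others for their role. The neighbours were chosen after the values were seen. Genes of the lists without a named probe set were not analysed here.

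Both groups carry replicate numbers 1 to 3 in the labels. Deviations from the group means of same-numbered arrays correlated at -0.01, -0.01 and 0.04 across probe sets, so the numbers were not taken to pair the samples. Alternatives were quantile normalization, median centring, trend with robust moderation, leaving out dim probe sets, a replicate block and leaving out each array.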

Additional observations from a re-analysis of the deposited data

How the results depend on the processing

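The log2 differences of the 7 genes kept their direction and moved by less than the SD between replicates in all 84 values from 12 alternatives. Most of this was fixed beforehand. The replicate block, the moderation, leaving out dim probe sets and averaging the probe sets of a gene could not change these differences. Leaving out 1 of 3 arrays cannot move a group mean by as much as the SD of its group. The counts of calls did vary. The 50 probe sets lower without doxycycline became 130 with trend and robust moderation, of which 48 were among the 50, and 107 without dim probe sets, which held all 50. With the replicate block, which rests on a shared number only, 0 were lower (limma, 2937 at an unadjusted p below 0.05), and 0 of the 7 genes passed, at adjusted p values of 0.119 to 0.204. With 1 array left out the count was 0 to 3 (2502 to 2988 at an unadjusted p below 0.05). With quantile normalization 49 probe sets were lower, and 6 of the 7 genes passed, with a largest limma adjusted p of 0.0501. The 7 genes were chosen on this same difference, so how many of them passed in any setting is no test of them. Of the 82 relatives, 1, SNX30, passed without dim probe sets, and 0 passed in each of the other alternatives (limma, 10 to 14 at an unadjusted p below 0.05). The cause of these shifts was not tested. Dim probe sets have no background level here, so a lack of difference near the bottom of the scale is weak evidence.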
